A study of Saccharomyces cerevisiae with 4 samples.

Results

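A yeast strain that lived on Ssa4 alone was compared here with one that lived on Ssa2 alone, by the ratio of their intensities for each feature of a whole-genome oligonucleotide array. Of the 5794 features of the array, 5774 had a value in both strains, and 3677 of these reached an intensity of 100 in each. The members described are the 231 features, or 6.28% of the 3677, whose intensity differed more than 2-fold: 130 (3.54%) were higher and 101 (2.75%) were lower in the Ssa4 strain. All strains were [psi-] derivatives of G402, in which the 4 chromosomal SSA genes are replaced by markers (SSA1 by KanMX, SSA2 by HIS3, SSA3 by TRP1 and SSA4 by URA3) beside the alleles kar1-1, ade2-1 and SUQ5 and mutations in his3, leu2, lys2, trp1 and ura3, and each survived on one SSA gene transcribed from the SSA2 promoter on a plasmid with a LEU2 marker. Further strains with Ssa3 or Ssa1 alone were hybridized in the same way. Each strain was represented by 1 array, for which several RNA extracts had been combined. No difference on the arrays can therefore be set against the spread between replicates, and no test was made. The study also measured selected genes by quantitative PCR (RT-qPCR) on replicate RNA samples of these strains, and gave fold changes against Ssa1. Of the members covered, ILV6 differed between Ssa4 and Ssa2 in the opposite direction there. The direction was the same for LYS20, HXT1, OYE3, HSP31, ADH2 and TOS6. The sample labels describe exponentially growing cells, whereas the methods describe overnight cultures.

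Hsp70 chaperones bind exposed hydrophobic stretches of other proteins in a cycle of ATP binding and hydrolysis that J-proteins and nucleotide exchange factors control. Yeast has 4 closely related cytosolic members of the Ssa subfamily, of which Ssa1 and Ssa2 are made during normal growth, and Ssa3 and Ssa4 mainly after heat shock or in starved cells. A comparison of Ssa4 with Ssa2 thus sets an inducible isoform against a constitutive one, both here under the control of the same promoter.

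The label of the Ssa2 strain was checked on SSA2 itself, which had an intensity of 2.38 on Ssa4, 2505 on Ssa2, 1.21 on Ssa3 and 9.01 on Ssa1. Array medians lay between 200.4 and 201.5. The median log2 ratio of Ssa4 to Ssa2 was 0.05 over all features and 0.10 over the 3677, with the central 95% of their ratios between 0.493 and 2.14. This median depended on brightness: it was 0.06 for features with a mean intensity of 100 to 500, 0.16 from 500 to 2000 and 0.26 above 2000, where 9.44% of features were more than 2-fold higher and 1.69% more than 2-fold lower in Ssa4. When this trend was removed with a lowess curve, 81 features were higher and 126 were lower, and after quantile normalization 83 were higher and 116 were lower. The direction of the balance between higher and lower features was thus turned by both scalings, and 81 of the 130 higher features stayed past 2-fold with the lowess curve. The median log2 ratio of the features close by on the array was past 0.3 in the same direction for 28 of 128 higher features and 11 of 101 lower features, compared with 13.6% and 8.05% of the 3677.

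**Figure D1:**
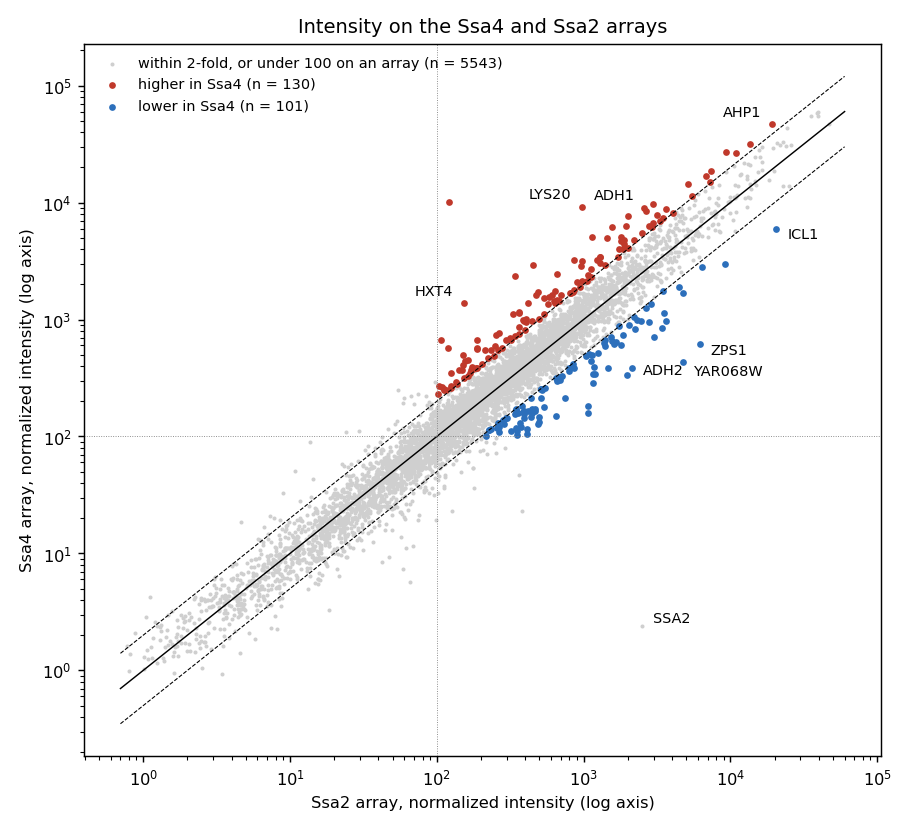
Normalized intensity on the Ssa4 array (vertical, log axis) against the Ssa2 array (horizontal, log axis), 1 point per feature. The solid line marks equality, the dashed lines 2-fold and the dotted lines an intensity of 100. The 130 red features are higher and the 101 blue features are lower in Ssa4, and SSA2 lies far below the line.

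Gene names were available for 947 features, or 16.3%, because only the genes that the study listed for a change against Ssa1 are paired with intensities. Names were found for 99 of the 130 higher features and 78 of the 101 lower ones. Among named features within the limit 20.3% were higher and 16% were lower, and the median log2 ratio of all named features was -0.15. The named genes were thus chosen by the study on these same arrays, and the gene groups below hold only their listed members. Genes listed for a high or low Ssa4 value against Ssa1 enter the ratio of Ssa4 to Ssa2 with that same value. The direction of a group is therefore partly set by naming, and its unnamed genes cannot be seen. Of the 54 features without a name, the largest difference belonged to one with 10024 on Ssa4, 121 on Ssa2, 166 on Ssa3 and 91.9 on Ssa1, an 82.6-fold higher value in Ssa4 that no other array approached. It was also 109-fold higher in Ssa4 than in Ssa1, so a missing name does not mean that a feature was unchanged against Ssa1. The other unnamed higher features ranged from 2.01 to 3.53-fold, and the unnamed lower ones had ratios between 0.358 and 0.499.

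The 10 named genes with the highest ratios included genes of amino acid synthesis, hexose uptake and redox metabolism. LYS20, a homocitrate synthase at the entry to lysine synthesis, stood at the top with 9247 on Ssa4, 971 on Ssa2, 6169.7 on Ssa3 and 3752 on Ssa1, a 9.53-fold difference. Next came HXT4, a hexose transporter, with 1391 on Ssa4, 153 on Ssa2, 89.5 on Ssa3 and 64.8 on Ssa1. For HXT4 the Ssa4 array was high and the other arrays were all low, whereas LYS20 was low on the Ssa2 array alone. By RT-qPCR the study found LYS20 in Ssa2 close to Ssa1, and a smaller difference between Ssa4 and Ssa2 than here. CSS3 was 6.97-fold higher (2375 on Ssa4 and 341 on Ssa2), and ALD3, a cytosolic aldehyde dehydrogenase, was 6.48-fold higher (2932 on Ssa4, 453 on Ssa2, 1476 on Ssa3 and 671 on Ssa1). HXT1, a low-affinity hexose transporter, was 6.28-fold higher, with 668 on Ssa4, 106 on Ssa2, 120.4 on Ssa3 and 39.5 on Ssa1. By RT-qPCR the difference of HXT1 between Ssa4 and Ssa2 was smaller too. AAD16, a putative aryl-alcohol dehydrogenase, was 4.83-fold higher and showed one high array (574 in Ssa4) above low ones between 96.6 and 119. CPR1, the cytosolic cyclophilin, ECM4, a glutathione transferase, and OYE3, an NADPH oxidoreductase of the old yellow enzyme family, followed with ratios of 3.92, 3.78 and 3.76.

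ILV6, the regulatory subunit of acetolactate synthase, had 5074 on Ssa4, 1135 on Ssa2, 5629 on Ssa3 and 5095 on Ssa1. The array low for ILV6 was thus Ssa2, and its ratio of 4.47 came with a median log2 ratio of 2.21 among the nearby features. After that local value was subtracted, the ratio of ILV6 was 0.965. The corresponding local values were 0.64 for LYS20 and 1.11 for CSS3, whose ratios after subtraction were 6.13 and 3.23. The part of the local signal in these differences was not tested. By RT-qPCR the study found ILV6 in Ssa2 close to Ssa1, and lower in Ssa4 than in Ssa2.

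Among the 10 lowest ratios were genes of the cell surface and of growth on carbon sources other than glucose. YAR068W was 10.9-fold lower, with 435 on Ssa4, 4752 on Ssa2, 931 on Ssa3 and 2572 on Ssa1, and ZPS1, which encodes a cell surface protein made in zinc-poor cells, was 10.02-fold lower with 615 on Ssa4, 6161 on Ssa2, 1258 on Ssa3 and 2900 on Ssa1. Both genes had the same order of arrays, with Ssa4 lowest, then Ssa3, then Ssa1, and Ssa2 highest. TOS6, a cell wall protein, was 6.75-fold lower and SIM1, a member of the SUN family of wall proteins, 5.91-fold lower. TOS6 had 159 on Ssa4, 1069.9 on Ssa2, 854 on Ssa3 and 772 on Ssa1, and SIM1 had 182 on Ssa4, 1075 on Ssa2, 785 on Ssa3 and 1204 on Ssa1, so that in both genes one low array, Ssa4, stood apart from 3 arrays of similar intensity. PHO89, a sodium-coupled phosphate transporter, was 5.88-fold lower (338 on Ssa4, 1987 on Ssa2, 1177 on Ssa3 and 1927 on Ssa1). UTH1, a second SUN family gene, and GAS1, a glucanosyltransferase that lengthens wall glucan, were 4.33-fold and 4.04-fold lower, and ADH2, ADY2 and GDH2 complete the 10.

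**Figure D2:**
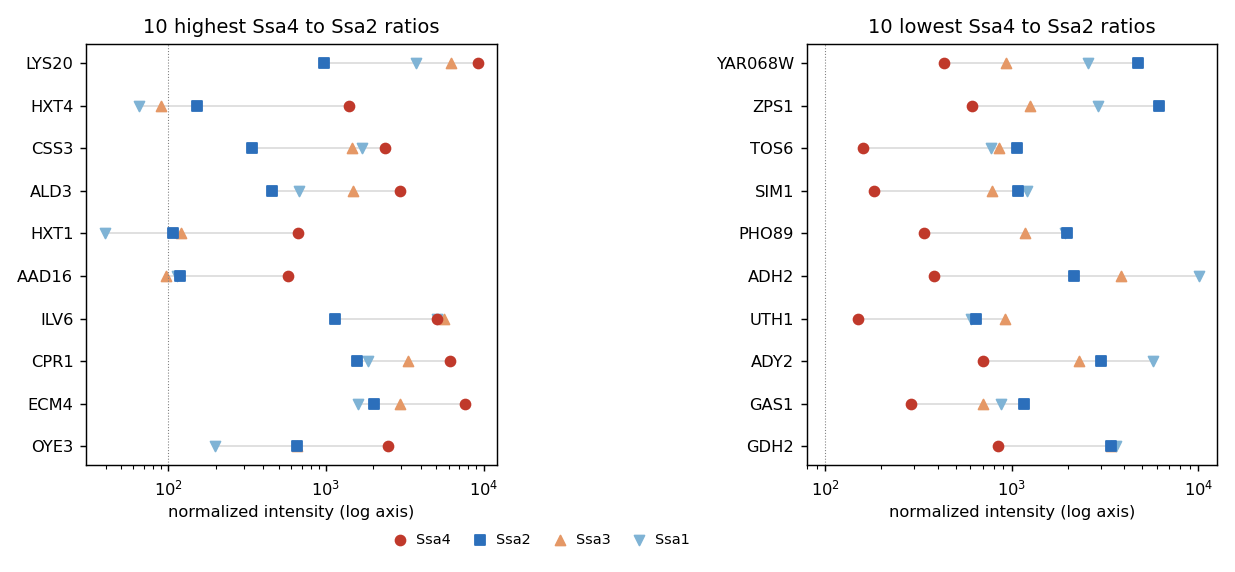
Normalized intensity (log axis) on the 4 arrays for the named genes at both ends of the ratio of Ssa4 to Ssa2, 10 highest (left) and 10 lowest (right). Each symbol is 1 array, the grey line spans the 4 values and the dotted line marks 100. In the lower genes the red Ssa4 symbol is at the left of all others.

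Genes for the use of ethanol, acetate and other carbon sources, which glucose represses, were lower in Ssa4 in each named member of the list drawn up for them with the values known. ALD3 and HXK1, described separately, are not on it and were higher. All 18 named members of the list of 29 had a log2 ratio below 0, with a median of -1.59, compared with 0.05 over all features. Each was also more than 2-fold lower in Ssa4 than in Ssa1, at ratios of 0.0381 to 0.462. Their shared direction against Ssa2 is thus not independent of how they were named. Of the 16 with at least 100 on both arrays, 13 were more than 2-fold lower and 0 were higher, where 2.75% of all such features and 16% of the named ones were lower. ADH2, the alcohol dehydrogenase that oxidizes ethanol, had 384 on Ssa4, 2148 on Ssa2, 3867 on Ssa3 and 10062 on Ssa1, a 5.60-fold difference. ADY2, an acetate transporter, had 703 on Ssa4, 3027 on Ssa2, 2299 on Ssa3 and 5699.7 on Ssa1 and was 4.31-fold lower. In both genes Ssa1 was the highest array and Ssa4 the lowest, with Ssa2 and Ssa3 between them. ACS1, which activates acetate to acetyl-CoA, was 2.82-fold lower, with 166 on Ssa4, 467 on Ssa2, 662 on Ssa3 and 758 on Ssa1.

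The glyoxylate cycle, which builds four-carbon acids from acetate, was represented by ICL1, isocitrate lyase, which was bright on all arrays (5998 on Ssa4, 20566 on Ssa2, 16310.4 on Ssa3 and 26197 on Ssa1) and 3.43-fold lower in Ssa4. MLS1, malate synthase of the same cycle, had 79.9 on Ssa4, 289.6 on Ssa2, 373 on Ssa3 and 616 on Ssa1, so it was below the limit of 100 in Ssa4 and was not counted. SFC1, the mitochondrial succinate-fumarate carrier, was 3.73-fold lower (969.7 on Ssa4, 3617 on Ssa2, 4281 on Ssa3 and 4909 on Ssa1). CIT3 and PDH1, neighbouring genes for a mitochondrial citrate synthase and a protein of propionate metabolism, were 2.83-fold and 3.85-fold lower, and both were dim in Ssa4, at 132 and 127 compared with 372 and 489 in Ssa2. The carnitine shuttle, which carries acetyl units into mitochondria, showed the same pattern in all of its 3 named genes. YAT1 had 2975 on Ssa4, 9134 on Ssa2, 11248 on Ssa3 and 12021 on Ssa1, YAT2 had 214 on Ssa4, 746 on Ssa2, 1018 on Ssa3 and 1446 on Ssa1, and the carrier CRC1 had 663 on Ssa4, 1392 on Ssa2, 1517 on Ssa3 and 2274 on Ssa1. These were 3.07-fold, 3.48-fold and 2.10-fold lower.

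SIP4, an activator of gluconeogenic genes, was 2.59-fold lower (173 on Ssa4 and 448 on Ssa2), and RGI2, a protein of respiratory growth, was 2.95-fold lower (607 on Ssa4 and 1788 on Ssa2) although its local median was 0.56 in the opposite direction. GDH2, which releases ammonium from glutamate, had 847 on Ssa4, 3409 on Ssa2, 3384 on Ssa3 and 3619 on Ssa1, so its 3 other arrays were within a narrow range and Ssa4 was 4.03-fold below Ssa2. The members that stayed within 2-fold were CTA1, the peroxisomal catalase, with a ratio of 0.905 at 93.1 on Ssa4 and 103 on Ssa2, MDH2, cytosolic malate dehydrogenase, with 0.776, ALD2 with 0.639 and FBP1, fructose-1,6-bisphosphatase, with 0.552. ALD2 and ALD3 are near-identical neighbours in the genome, and an oligonucleotide may not separate them fully, yet their ratios lay in opposite directions.

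Hexose transporters and glucose sensing genes did not share one direction. Of 10 named members of a list of 19, 8 had at least 100 on both arrays, and the median log2 ratio was 1.01. By more than 2-fold 4 of the 8 were higher and 0 were lower, beside 20.3% and 16% of all named features at that limit. Beside HXT4 and HXT1, HXK1, a hexokinase that glucose represses, was 2.51-fold higher with 18626 on Ssa4, 7435 on Ssa2, 11756 on Ssa3 and 6390 on Ssa1, and MTH1, a regulator that represses HXT genes when glucose is scarce, was 2.19-fold higher with 252 on Ssa4, 115 on Ssa2, 163 on Ssa3 and 63.4 on Ssa1. HXK1 is one of the bright genes: its ratio was 1.98 after the lowess curve was subtracted. STD1, a paralogue of MTH1, had 76.6 on Ssa4 and 32.6 on Ssa2, both under the limit. The opposite direction was seen in HXK2, the main hexokinase of glucose growth, with a ratio of 0.619, in HXT7, a high-affinity transporter, with 0.550, and in HXT2 with 0.539, none of them past 2-fold. HXT6, nearly identical to HXT7, had a ratio of 1.28, and signal of the pair may be shared. In the RT-qPCR of the study HXT7 was higher in Ssa4 than in Ssa2, the opposite of its array ratio. In glycolysis and fermentation 3 of 21 genes were named. ADH1, the dehydrogenase that forms ethanol, was 3.21-fold higher (8514 on Ssa4, 2651 on Ssa2, 7935 on Ssa3 and 7058 on Ssa1), with Ssa2 as the low array, while PDC6 and GPM1 had ratios of 1.45 and 0.843.

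Zinc-responsive genes differed among themselves. Of 6 named members of a list of 15, only ZPS1 and IZH1 had at least 100 on both arrays, and the median log2 ratio of the 6 was -1.78. Of these 2 genes 1 was more than 2-fold lower and 0 were higher, beside 16% and 20.3% of all named features at that limit. Under an offset of 50 added to each intensity this median was -0.57. YOR387C and VEL1, a pair of closely related genes that respond to low zinc, had 5.67 on Ssa4, 65.6 on Ssa2, 11.9 on Ssa3 and 22.2 on Ssa1, and 3.30 on Ssa4, 18.5 on Ssa2, 9.0 on Ssa3 and 8.78 on Ssa1. Their ratios of 0.0864 and 0.179 rest on intensities far below the limit, and the similarity of both sequences may mix their signals. RTC4 had 94.5 on Ssa4 and 199 on Ssa2. In contrast, IZH2 and IZH1, membrane proteins of the family linked to zinc homeostasis, had higher values in Ssa4. IZH2 had 187 on Ssa4, 86.2 on Ssa2, 106 on Ssa3 and 89.1 on Ssa1, under the limit in Ssa2, and IZH1 had 1525 on Ssa4, 902 on Ssa2, 1138 on Ssa3 and 697 on Ssa1, a ratio of 1.69.

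**Figure D3:**
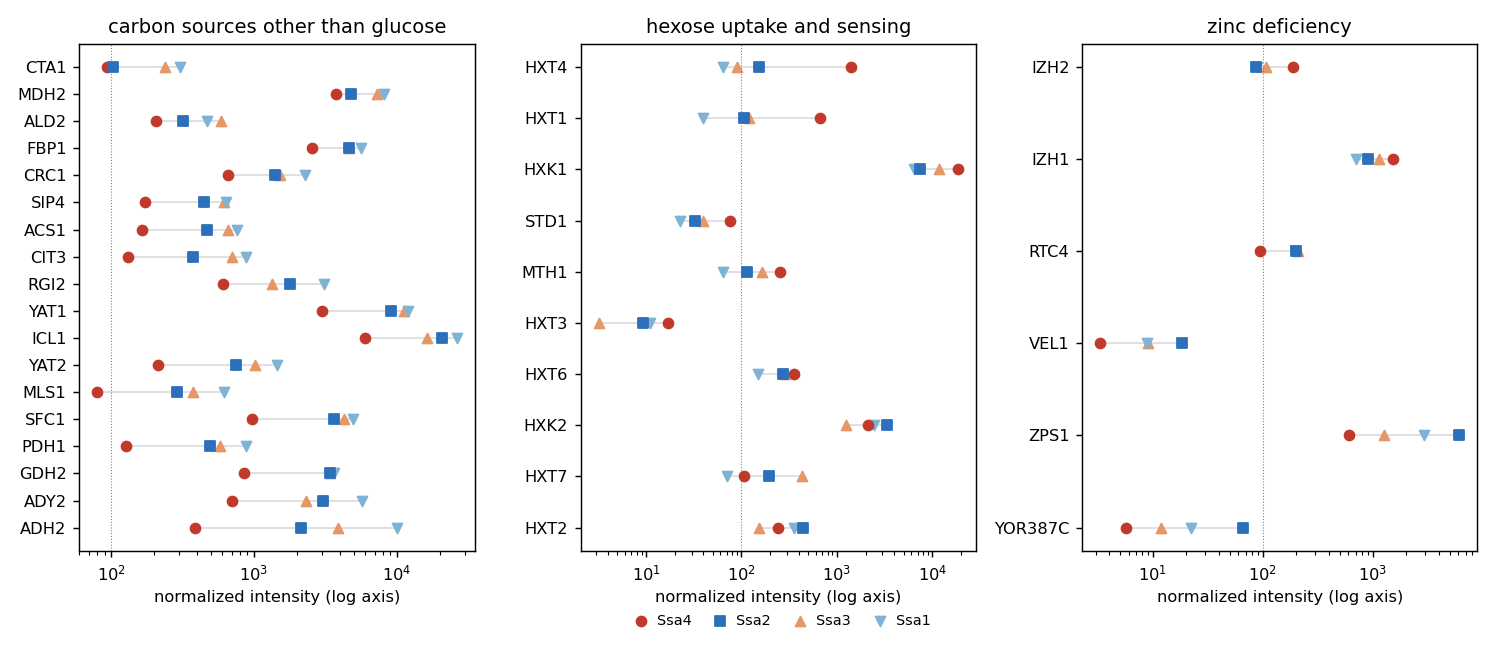
Normalized intensity (log axis) on the 4 arrays of all named members of the lists for carbon sources other than glucose (18 genes), hexose uptake and sensing (10) and zinc deficiency (6), ordered by the ratio of Ssa4 to Ssa2. Each symbol is 1 array, and the dotted line marks 100. In the left panel Ssa4 is the lowest array for each gene, and in the other panels both directions occur.

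Genes of oxidative stress and redox metabolism formed the largest group among the higher features. All 31 named members of a list of 39 had a log2 ratio above 0, between 0.61 and 2.27 with a median of 1.40, and 24 of the 26 with at least 100 on both arrays were more than 2-fold higher, against 3.54% of all such features and 20.3% of the named ones. This list was also drawn up with the values of the named genes known. All its named members except AAD10 and CTT1 were also more than 2-fold higher in Ssa4 than in Ssa1. The shared direction of the list is thus not independent of how its genes were named. With the lowess curve the list median was 1.23. Many of these genes are targets of the oxidant-sensing factor Yap1 in yeast. Among members with at least 100 on both arrays, the largest change after AAD16, ECM4 and OYE3 was that of GRE2, a methylglyoxal reductase, with 1734 on Ssa4, 492 on Ssa2, 695 on Ssa3 and 265 on Ssa1 and a ratio of 3.52. In ECM4 (7611 on Ssa4, 2016 on Ssa2, 2948 on Ssa3 and 1588 on Ssa1) and OYE3 (2458 on Ssa4, 654 on Ssa2, 654 on Ssa3 and 197 on Ssa1) the order was the same as in GRE2 apart from Ssa2 and Ssa3, which had equal values in OYE3. Thus Ssa4 was the highest and Ssa1 the lowest array in this trio.

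Antioxidant enzymes of the thioredoxin and glutathione systems ranged widely in brightness, with AHP1 and TRX2 among the brightest features of the set. AHP1, a peroxiredoxin, had 46685 on Ssa4, 19143 on Ssa2, 27748 on Ssa3 and 14763 on Ssa1 (2.44-fold), and TRX2, a cytosolic thioredoxin, had 31659 on Ssa4, 13509 on Ssa2, 10316 on Ssa3 and 7303 on Ssa1 (2.34-fold). These 2 genes passed 2-fold only without correction for brightness: with the lowess curve their ratios were 1.82 and 1.79. Among all 177 named members past 2-fold, 34 came within 2-fold with this curve. Ratios close to 2 in the other bright genes here carry the same limit. TSA2, another peroxiredoxin, was 3.25-fold higher (3163 on Ssa4, 973 on Ssa2, 1308 on Ssa3 and 880.3 on Ssa1), SRX1, which restores oxidized peroxiredoxins, 2.69-fold (3456 on Ssa4, 1284 on Ssa2, 1535 on Ssa3 and 986 on Ssa1) and SOD1, the copper-zinc superoxide dismutase, 2.54-fold (4781 on Ssa4, 1882 on Ssa2, 3137 on Ssa3 and 2032 on Ssa1). GSH1, the first enzyme of glutathione synthesis, GRX1, a glutaredoxin, TRX3, the mitochondrial thioredoxin, and MXR1, a methionine sulfoxide reductase, had ratios of 2.27, 2.12, 2.06 and 2.76. ZWF1 and GND2, which make NADPH in the pentose phosphate pathway, had ratios of 2.17 and 2.44, while TKL1 and RKI1 of the non-oxidative branch of that pathway, which are on no list, were 2.95-fold and 2.08-fold lower. FLR1 and ATR1, drug efflux pumps of the plasma membrane, were 3.35-fold and 2.13-fold higher. The aryl-alcohol dehydrogenases AAD4, AAD6, AAD10 and AAD14 had ratios of 2.80, 3.13, 2.37 and 1.95, but they are close copies of each other and AAD6 was under the limit in Ssa2. OSI1, GPX2 and GTT2, at ratios of 4.49, 3.25 and 2.98, were also under the limit in Ssa2. Within 2-fold were AAD14, GRX2 (1.89) and CTT1, the cytosolic catalase, with 70.7 on Ssa4 and 46.2 on Ssa2.

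Chaperone genes were for the most part higher in Ssa4, with HSP82 as the exception past 2-fold. Of 15 named members of a list of 33, 13 had at least 100 on both arrays. Of these 6 were more than 2-fold higher and 1 was lower, beside 20.3% and 16% of all named features at that limit. The median log2 ratio was 0.81 without SSA2. With SSA2 counted it was 0.80, and 0.54 with the lowess curve. The 6 higher genes except GIM5 were also more than 2-fold higher in Ssa4 than in Ssa1. Their direction is thus not independent of how they were named. CPR1 had 6146 on Ssa4, 1567 on Ssa2, 3298 on Ssa3 and 1836 on Ssa1, with Ssa4 highest and Ssa3 next. SGT2, a cochaperone that hands tail-anchored proteins on, had 9675 on Ssa4, 2953 on Ssa2, 5898 on Ssa3 and 4143 on Ssa1, a ratio of 3.28. GIM5, a prefoldin subunit, was 2.93-fold higher (774 on Ssa4 and 264 on Ssa2), but features close by had a median log2 ratio of 0.96, and the ratio after subtraction was 1.51.

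HSP30, a membrane protein that restrains the proton pump Pma1 under stress, was bright, with 26526 on Ssa4, 10989.6 on Ssa2, 21057 on Ssa3 and 8503 on Ssa1 and a ratio of 2.41. HSP31, a methylglyoxalase and chaperone that is on the redox list too, had 7010.1 on Ssa4, 3304 on Ssa2, 2765 on Ssa3 and 498 on Ssa1. Its Ssa1 value was thus far below the others. SSE2, an Hsp110 nucleotide exchange factor of Hsp70, was 2.07-fold higher (11315 on Ssa4, 5469 on Ssa2, 7349.7 on Ssa3 and 5117 on Ssa1), and its constitutive relative SSE1 had a ratio of 1.74. With the lowess curve the ratios of HSP30 and SSE2 were 1.87 and 1.68. HSP10, SSC1 and CPR6, a mitochondrial chaperonin subunit, the mitochondrial Hsp70 and a cyclophilin of Hsp90, had ratios of 1.77, 1.70 and 1.66. HSP82, the inducible Hsp90, was 2.54-fold lower, with 442 on Ssa4, 1121 on Ssa2, 1439.7 on Ssa3 and 1124 on Ssa1. The ribosome-bound Hsp70 genes SSB1 and SSB2, which are nearly identical, had ratios of 0.519 and 0.626. SCJ1, a J-protein of the endoplasmic reticulum, had 23.2 on Ssa4, 382 on Ssa2, 179 on Ssa3 and 296 on Ssa1, under the limit in Ssa4, and its nearby features had a median log2 ratio of -1.49.

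Named components of the translation machinery were mostly lower. Of 137 cytosolic ribosomal protein genes 32 were named, 29 of them had a log2 ratio below 0 and the median was -0.87. Most of the 32 had an Ssa4 value of about 0.5 of Ssa1 or less. Their direction is thus not independent of how they were named, and the unnamed ribosomal protein genes cannot be seen. Of the 20 with at least 100 on both arrays, 6 were more than 2-fold lower and 1 was higher, beside 16% and 20.3% of all such named features. RPL7A was 3.72-fold lower with 133 on Ssa4, 496 on Ssa2, 363 on Ssa3 and 446 on Ssa1, and RPL43B 3.07-fold lower with 1144 on Ssa4, 3511 on Ssa2, 2202 on Ssa3 and 2650.1 on Ssa1. RPP0, the base of the ribosomal stalk, was 2.29-fold lower (896 on Ssa4, 2051 on Ssa2, 2899.6 on Ssa3 and 1398 on Ssa1), and RPS12 and RPS7A were 2.11-fold and 2.00-fold lower. RPL27B stood against them at 2.17-fold higher (2123 on Ssa4, 980 on Ssa2, 992 on Ssa3 and 325 on Ssa1), a ratio of 1.92 with the lowess curve, and its duplicate RPL27A had a ratio of 1.44. Most ribosomal protein genes have a near-identical duplicate, and 12 of the 32 were under the limit on an array. All 5 named aminoacyl-tRNA synthetases of 21 were below 0, with a median ratio of 0.4997. Their ratios of Ssa4 to Ssa1 were low too, from 0.369 to 0.504, so the same limit holds for them. KRS1, TYS1 and CDC60, for lysine, tyrosine and leucine, were 2.20-fold, 2.00-fold and 2.00-fold lower, the last of these just past the threshold, and WRS1, for tryptophan, had a ratio of 0.574. CDC33, the cap-binding translation factor eIF4E, which is on no list, was 2.03-fold higher (413 on Ssa4, 203 on Ssa2, 392.3 on Ssa3 and 411 on Ssa1), and Ssa2 was the one low array for it.

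Genes of the cell wall were lower in Ssa4 with one exception past 2-fold. All 13 named members of a list of 34 had at least 100 on both arrays, with a median log2 ratio of -1.44. Past 2-fold, 11 were lower and 1 was higher, beside 16% and 20.3% of all such named features. This list too was drawn up with the values known. Its named members except SPI1 and FIT3 were also more than 2-fold lower in Ssa4 than in Ssa1, so their direction is not independent of naming. UTH1 had 149 on Ssa4, 645 on Ssa2, 918 on Ssa3 and 603 on Ssa1 and GAS1 had 286 on Ssa4, 1157 on Ssa2, 703 on Ssa3 and 873 on Ssa1, so for both the Ssa4 array was lowest and the others were well above it. SVS1 was 3.53-fold lower (340.4 on Ssa4, 1203 on Ssa2, 644 on Ssa3 and 1071 on Ssa1), and SCW4, a wall glucanase, was 2.92-fold lower (951 on Ssa4, 2773 on Ssa2, 2178 on Ssa3 and 2634 on Ssa1). PRY2, TOS1 and FKS1, the last of which is a catalytic subunit of glucan synthase, were 2.71-fold, 2.49-fold and 2.25-fold lower. OCH1, the mannosyltransferase that starts outer chains in the Golgi, was 2.05-fold lower (138 on Ssa4 and 284 on Ssa2) with a local median of -0.65. SPI1, a wall protein induced in stationary phase, was 2.90-fold higher at 27248 on Ssa4, 9407 on Ssa2, 9904 on Ssa3 and 6534 on Ssa1, and CWP1 had a ratio of 0.917.

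Iron and copper genes included both directions. Of 9 named members of a list of 27, 7 had at least 100 on both arrays, and the median log2 ratio was -0.66. Past 2-fold, 1 of the 7 was higher and 3 were lower, beside 20.3% and 16% of all such named features. CRS5, a copper metallothionein, was 2.81-fold higher (14512 on Ssa4, 5156 on Ssa2, 7903 on Ssa3 and 3963 on Ssa1). TIS11, which destabilizes mRNAs when iron is scarce, was 2.99-fold lower (395 on Ssa4, 1182 on Ssa2, 804 on Ssa3 and 363 on Ssa1), FIT3, a wall mannoprotein that retains siderophores, 2.36-fold (589.8 on Ssa4, 1389 on Ssa2, 538 on Ssa3 and 459 on Ssa1) and FRE7, a putative ferric reductase, 2.19-fold (705 on Ssa4, 1542 on Ssa2, 2629 on Ssa3 and 1105 on Ssa1). For TIS11 and FIT3 the Ssa2 array was the highest of the 4. FET3, the multicopper ferroxidase, had 33.1 on Ssa4 and 101 on Ssa2, and the metallothionein CUP1-1, a tandem repeat, had 143 on Ssa4 and 90.1 on Ssa2. The 2 named phosphate genes of 15 were both more than 2-fold lower, beside 16% of all such named features. They were PHO89, given above, and PHO5, a secreted acid phosphatase, with 111 on Ssa4, 323 on Ssa2, 216 on Ssa3 and 497 on Ssa1. Their ratios of Ssa4 to Ssa1 were low too, at 0.175 and 0.224, so their direction is not independent of naming.

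Among genes for the use of poor nitrogen sources, 12 of 24 were named and 5 had at least 100 on both arrays. Past 2-fold, 1 of the 5 was higher and 3 were lower, beside 20.3% and 16% of all such named features. DAL4, the allantoin permease, was 2.19-fold higher (248 on Ssa4 and 113 on Ssa2). ATO3, a putative ammonium exporter, was 3.83-fold lower (383 on Ssa4, 1469 on Ssa2, 1464 on Ssa3 and 3291 on Ssa1), PUT4, a proline permease, was 2.96-fold lower (180.3 on Ssa4, 534 on Ssa2, 746 on Ssa3 and 1483 on Ssa1), and ARO10, a decarboxylase of the Ehrlich pathway, was 2.52-fold lower (978 on Ssa4, 2464 on Ssa2, 2244 on Ssa3 and 3493 on Ssa1). Ssa4 was lowest and Ssa1 highest in each. ARO9, the aminotransferase of the same pathway, had 46.7 on Ssa4, 365 on Ssa2, 222 on Ssa3 and 442 on Ssa1, under the limit in Ssa4. The median log2 ratio of the list was -0.12.

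Sulphate assimilation and methionine genes were higher in 10 of 11 named members of a list of 21, with a median log2 ratio of 0.92. Of the 10 with at least 100 on both arrays, 5 were more than 2-fold higher and 1 was lower, beside 20.3% and 16% of all such named features. MUP3, a methionine permease, had 410 on Ssa4, 150 on Ssa2, 149 on Ssa3 and 72.4 on Ssa1, and SUL2, a sulphate permease, had 369 on Ssa4, 142 on Ssa2, 156 on Ssa3 and 48.4 on Ssa1. MET16, MET2 and STR3 followed with ratios of 2.17, 2.10 and 2.03. Their lowest value was in Ssa1 in each case. These 5 higher genes were also more than 2-fold higher in Ssa4 than in Ssa1, so their direction is not independent of naming. MET17, the O-acetylhomoserine sulfhydrylase of this route, stood against them at 3.36-fold lower, with 342 on Ssa4, 1150.3 on Ssa2, 759.9 on Ssa3 and 352 on Ssa1. OPT1, a transporter of glutathione and oligopeptides that is on no list, was 2.29-fold higher.

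In the synthesis of lysine, branched-chain amino acids and arginine, 10 of 27 genes were named, and the median log2 ratio was -0.51. Among the 8 with at least 100 on both arrays 3 were higher and 2 were lower, beside 20.3% and 16% of all such named features. LYS20 and ILV6 are described above. The third, LEU2, an enzyme of leucine synthesis, had 5006 on Ssa4, 1451 on Ssa2, 3229 on Ssa3 and 999 on Ssa1, and it is also the marker on the plasmid in every strain, so its chromosomal and plasmid copies cannot be told apart. Lower were LYS12, homoisocitrate dehydrogenase, with 156 on Ssa4, 343 on Ssa2, 575 on Ssa3 and 390.3 on Ssa1, and ARG1, argininosuccinate synthetase, with 493 on Ssa4, 1138 on Ssa2, 1227 on Ssa3 and 1326 on Ssa1. LYS20 and LYS12, enzymes of a single pathway, thus had opposite directions on the arrays, at 9.53-fold higher and 2.20-fold lower. The limit given above for the size of the LYS20 difference holds here too.

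The divergently neighbouring histone genes HHF1 and HHT1, for H4 and H3, were just past 2-fold higher, at ratios of 2.05 and 2.00, while HTB2, for H2B, was 2.93-fold lower (119 on Ssa4, 347 on Ssa2, 334 on Ssa3 and 350 on Ssa1). Each has a near-identical copy elsewhere. RNR1, the large subunit of ribonucleotide reductase, was 3.43-fold lower (102 on Ssa4, 351 on Ssa2, 193 on Ssa3 and 313 on Ssa1) and POL30, the replication clamp PCNA, 2.30-fold lower (302 on Ssa4, 693 on Ssa2, 688 on Ssa3 and 679 on Ssa1). For POL30 the other arrays were nearly equal and Ssa4 was low. The G1 cyclin CLN2 had a ratio of 0.529. This list of 24 had 8 named members with a median log2 ratio of -0.93. Of the 6 within the limit 2 were higher and 3 were lower, beside 20.3% and 16% of all such named features.

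**Figure D4:**
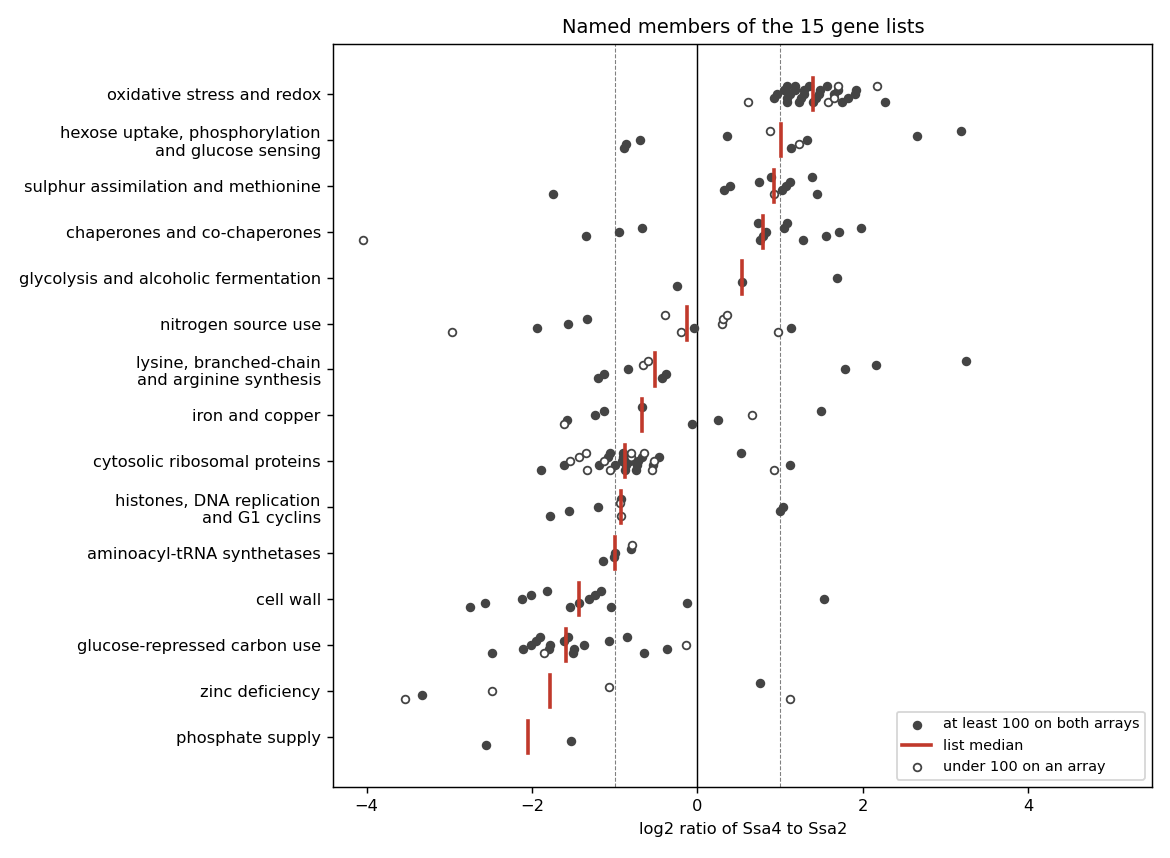
Log2 ratio of Ssa4 to Ssa2 for the named members of the 15 gene lists, ordered by list median. Each point is 1 gene, filled where both intensities were at least 100 and open otherwise, red bars are medians over the named members, and dashed lines mark 2-fold. SSA2 (log2 ratio -10.04) counts in the chaperone median and lies outside the plot. All listed redox genes lie above 0 and all listed genes of glucose-repressed carbon use below 0.

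Of the named features past 2-fold, 51 higher and 30 lower ones were on no list, and those described next were chosen after their values were seen. Several higher ones handle reserve carbon and small carbonyl compounds. GPH1, glycogen phosphorylase, had 6325 on Ssa4, 1957 on Ssa2, 5124 on Ssa3 and 4528 on Ssa1, a ratio of 3.23, DAK1, dihydroxyacetone kinase, had 3393 on Ssa4, 1295 on Ssa2, 1403 on Ssa3 and 1324 on Ssa1, a ratio of 2.62, and the neighbouring butanediol dehydrogenase genes BDH1 and BDH2 had ratios of 2.30 and 2.14. Stress-induced genes were present with DDR48 at 2.35-fold and EGO4 at 3.44-fold. VID24 and GID10, substrate receptors of the ubiquitin ligase that degrades gluconeogenic enzymes, were 2.43-fold and 2.37-fold higher. VID24 had 2719 on Ssa4, 1119 on Ssa2, 983 on Ssa3 and 584 on Ssa1. RPC31, a subunit of RNA polymerase III, was 3.70-fold higher (3197 on Ssa4, 864 on Ssa2, 1817 on Ssa3 and 844 on Ssa1). Mitochondrial genes were CYC7, the minor cytochrome c isoform (2.69-fold), ISU2, an iron-sulphur scaffold (2.49-fold), and TIM13, an import chaperone (2.10-fold). UBP2, a ubiquitin protease, had a ratio of 3.44 with a local median of 1.11, and GNA1, of glucosamine metabolism, had a ratio of 2.25 with a local median of 1.24, after whose subtraction it was 0.955.

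Lower features outside the lists included metabolic and membrane genes. NCE103, carbonic anhydrase, had 1695 on Ssa4, 4751 on Ssa2, 5220.3 on Ssa3 and 4588 on Ssa1 and was 2.80-fold lower, and PNP1, purine nucleoside phosphorylase, had 104 on Ssa4, 411 on Ssa2, 339 on Ssa3 and 328 on Ssa1 and was 3.95-fold lower. INO1, which makes inositol phosphate for phospholipids, was 2.43-fold lower. MVD1 and ERG6 of sterol synthesis were 2.42-fold and 2.16-fold lower, and PMA1, the plasma membrane proton pump, was 2.09-fold lower (250.4 on Ssa4, 524 on Ssa2, 688 on Ssa3 and 562 on Ssa1). Genes of mitochondrial carbon metabolism and transport were LSC1, a subunit of succinyl-CoA ligase, ODC1, an oxodicarboxylate carrier, MAE1, malic enzyme, and PET9, the main ADP/ATP carrier, at 2.13-fold, 2.12-fold, 2.23-fold and 2.02-fold lower. SMF2, a manganese transporter, and NTR2, a splicing factor, were 3.56-fold and 3.14-fold lower with local medians of -1.15 and -1.28, so that their ratios after subtraction were 0.624 and 0.773. The part of the local signal in these values was not tested.

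The members differed in which array set them apart. Of the 130 higher features, Ssa4 was the highest of the 4 arrays in 122 and Ssa2 the lowest in 60. Of the 101 lower features, Ssa4 was the lowest in 93 and Ssa2 the highest in 49. As members were chosen by their Ssa4 and Ssa2 values, an end position of these arrays is partly set by that choice. Within the members, Ssa4 stood at the end of the 4 strains more often than Ssa2, as in AAD16 and TOS6. On the arrays, Ssa2 stood apart from the others in ILV6, ADH1 and CDC33, but not in the RT-qPCR of ILV6. The Ssa3 value lay between those of Ssa4 and Ssa2 in 106 of the higher and 66 of the lower features, and the Ssa1 value did so in 55 of each. A gap of more than 2-fold between Ssa4 and Ssa2 by itself makes a value between them more likely. None of these positions was counted over all features, so they cannot be read as particular to the members.

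The other inducible isoform, Ssa3, was set against the other constitutive one, Ssa1, on the pair of arrays that the ratio of Ssa4 to Ssa2 does not use. Of the 130 features higher in Ssa4 than in Ssa2, 117 (90%) were higher in Ssa3 than in Ssa1, where 58.7% of all 3677 features were. Of the 101 lower features, 71 (70.3%) were lower in Ssa3 than in Ssa1, compared with 41.3% of all. The sizes were smaller: the median ratio of Ssa3 to Ssa1 was 1.56 for the higher and 0.848 for the lower features, compared with 1.06 over all 3677. A brightness trend was present in this pair as well, since 69.1% of the features of at least 500 on the Ssa4 and Ssa2 arrays were higher in Ssa3 than in Ssa1. With lowess curves subtracted the shares were 77.8% of 81 higher and 79.4% of 126 lower features, beside 50.3% and 49.7% of all. All of these are 1 array per strain, and whether the shares differ beyond the variation of replicate cultures was not tested.

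In 32 higher and 11 lower features Ssa3 and Ssa1 also differed more than 2-fold in the same direction. Restricted to features with at least 100 on the Ssa3 and Ssa1 arrays too, these were 23 of 116 higher and 10 of 99 lower features, where 1.98% of all features with at least 100 on those arrays were past 2-fold higher and 1.31% lower in Ssa3. Among the higher ones were HSP31, at ratios of 2.12 for Ssa4 to Ssa2 and 5.55 for Ssa3 to Ssa1, OYE3 (3.76 and 3.31), SUL2 (2.61 and 3.22, with Ssa1 under the limit), LEU2 (3.45 and 3.23) and HXT1 (6.28 and 3.05, likewise). In the RT-qPCR of the study, HXT1 was lower in Ssa3 than in Ssa1. YAR068W (0.0915 and 0.362), ZPS1 (0.0998 and 0.434), ADH2 (0.179 and 0.384) and ADY2 (0.232 and 0.403) were among the lower ones. The opposite direction past 2-fold was found in 0 of the higher and in 6 of the lower features. The redox list had a median log2 ratio of 0.72 for Ssa3 to Ssa1, that for carbon sources other than glucose -0.33, and that for the cell wall 0.07. The iron and copper list, at -0.66 for Ssa4 to Ssa2, had a median of 0.998 for Ssa3 to Ssa1. In the zinc list the median was 0.06 over 6 genes of mixed direction, with ZPS1 at a ratio of 0.434 and YOR387C at 0.536.

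**Figure D5:**
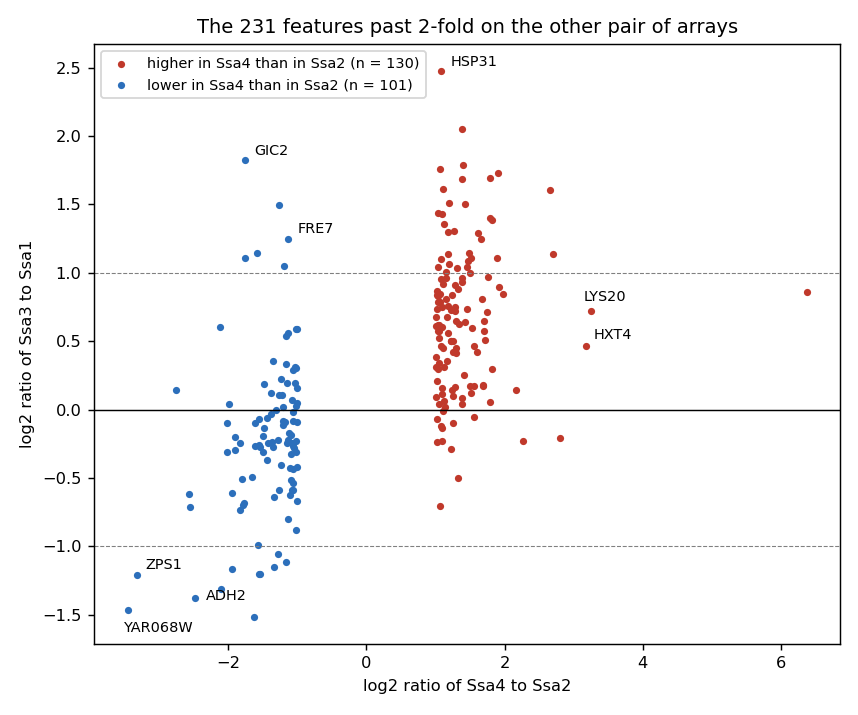
Log2 ratio of Ssa3 to Ssa1 (vertical) against log2 ratio of Ssa4 to Ssa2 (horizontal) for the 231 features past 2-fold in Ssa4 against Ssa2, 130 higher (red) and 101 lower (blue). Dashed lines mark 2-fold on the vertical axis. Most red points lie above 0, most blue points below, and 6 blue points lie above the upper dashed line.

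At the edge of the threshold, HHT1 (ratio 2.00) and an unnamed feature (2.01) were just inside on the higher side, and SFA1 (1.999) and an unnamed feature (1.997) just outside. On the lower side CDC60 and RPS7A (0.4997 each) were just inside and 2 unnamed features (0.5004 and 0.5006) just outside. Without the limit on intensity, 183 features were higher and 219 lower, so that 53 and 118 more passed 2-fold with a value under 100 on an array. Past 3-fold were 28 higher and 26 lower members, and past 4-fold 8 and 10.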

How the data were processed

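Normalized intensity values of 4 arrays were analysed, 1 per strain. The authors took the median Cy5 foreground of each spot as its intensity, kept spots above the background given by blank spots, subtracted the mean background and scaled each array by its median. These deposited values are linear and were used unchanged, and 0 of their columns belong to no sample. Ratios were formed without an offset. A feature was counted above a ratio of 2 or below 0.5 if both intensities reached 100. Replicate error is unknown with 1 array per strain, so precision is limited by the number of arrays and tests were not run.

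Features were named where all 4 intensities matched a row of the study's supplementary gene table within a relative difference of 1e-05. Of the 947 names, 936 are in the R64 gene table, used for names and gene neighbours only. Genes named in the text are the 10 highest and 10 lowest ratios, members of the zinc and carbon lists, the largest changes of the other lists, the features at the threshold and SSA2, and further genes were chosen after their values were seen. The result of 1 gene is not reported here. The members and the 15 lists were chosen with earlier results of these data known. Nearby features are those 1, 14 and 15 positions away in 32 blocks that the feature names imply, at least 3 of them with a value, a layout picked after its correlation was examined in the same data.

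The counting was checked on simulated data with 200 changed features. Alternatives were other scalings (medians over features with 4 values, quantile, lowess with fraction 0.4), thresholds of 3 and 1.5, limits on intensity, an offset of 50, missing values set to the lowest of the array, and the signal of nearby features. Python 3.11.15 was used with numpy 2.4.6, pandas 2.3.3, statsmodels 0.14.6 and matplotlib 3.10.9.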

Additional observations from a re-analysis of the deposited data

Results flagged for a closer look

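In 6 genes the pairs of arrays went past 2-fold in opposite directions, lower in Ssa4 than in Ssa2 and higher in Ssa3 than in Ssa1, and with 1 array per strain the difference between the pairs was not tested. GIC2, an effector of the GTPase Cdc42, had a ratio of 0.297 for Ssa4 to Ssa2 and of 3.54 for Ssa3 to Ssa1, with 147 on Ssa4, 496 on Ssa2, 438 on Ssa3 and 124 on Ssa1. Its nearby features had a median log2 ratio of 0.95 for Ssa3 to Ssa1, and their part in that value was not tested. MET17 had ratios of 0.297 and 2.16 (342 on Ssa4, 1150.3 on Ssa2, 759.9 on Ssa3 and 352 on Ssa1), and TIS11 had 0.334 and 2.22. GIC2 and MET17 have consecutive feature names but fall in different blocks of the implied layout. In YDL085C-A the ratios were 0.415 and 2.82 (164 on Ssa4, 395 on Ssa2, 246 on Ssa3 and 87.1 on Ssa1), in RPP0 0.437 and 2.07, and in FRE7 0.457 and 2.38. The arrays thus fell into Ssa4 and Ssa1 below Ssa2 and Ssa3 in all 6 genes.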

How the results depend on the processing

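The count of 130 higher features was 83 after quantile normalization and 81 with a lowess curve subtracted, all of them among the 130, and 28 at 3-fold, 461 at 1.5-fold and 68 where both intensities were at least 500. The count of 101 lower features was 26 at 3-fold, 285 at 1.5-fold, 31 at 500, 219 without a limit and 221 with missing values set to the lowest of the array. With quantile normalization 116 features were lower, 96 of them among the 101, and with the lowess curve 126 were, including all 101. The share of higher features with Ssa3 above Ssa1 was 77.1% with quantile normalization, 77.8% with lowess, 83.6% both without a limit and with missing values filled in, and 95.6% at 500, and that of lower features with Ssa3 below Ssa1 was 80.2%, 79.4% and, at 3-fold, 80.8%. The median log2 ratio of the zinc list was -0.57 with an offset of 50 and -1.07 among genes whose nearby features had a median within 0.3 of 0, and it stayed between -1.78 and -1.62 otherwise. That of the genes for carbon sources other than glucose stayed between -1.83 and -1.44 in all settings run.

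Of the 177 named members, 34 came within 2-fold with quantile normalization, 34 with lowess, 40 with the offset and 1 with equal medians. Subtraction of the local median brought 37 within 2-fold and reversed ILV6 to 0.965 and GNA1 to 0.955, and 89 of 128 higher and 83 of 101 lower features remained past 2-fold. No paired analysis was possible because each strain has 1 array and the labels give no replicate numbers. Values under 100 on an array, as in most zinc genes, give ratios that depend on the background subtraction.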
